A study of Mus musculus with 4 samples.

Results

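The transcripts followed here are 6 markers of peripheral glia, *Sox10*, *Foxd3*, *Erbb3*, *Cdh19*, *S100b* and *Fabp7*, in RNA-seq of whole mouse pancreas at E18.5. They were taken by gene symbol from a table of 24391 genes. The table holds 4 libraries, 2 labelled Pdx1Cre RESTwt (controls) and 2 labelled Pdx1Cre RESTLoxP/LoxP (hereafter Rest pKO), all from a mixed strain with C57BL/6. Embryos of both genotypes thus carry the *Pdx1*-Cre transgene according to the labels. In Rest pKO embryos Cre removes the loxP-flanked exon of *Rest*, the gene of a repressor of neuronal genes, in the pancreatic epithelium. The question put to these libraries was which transcripts differ between the genotypes. The methods describe more pancreas per genotype than the 2 libraries held here, and do not say which of them these are.

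Peripheral glia arise from the neural crest, which lies outside the epithelium in which *Pdx1* drives Cre. Schwann cell precursors enter organs along growing nerves and become myelinating or non-myelinating Schwann cells, and in the pancreas Schwann cells accompany autonomic fibres and wrap around islets. SOX10 is the transcription factor that the whole peripheral glial lineage needs, and the neuregulin receptor ERBB3 passes on the axonal signal on which its survival depends. Several of these markers are not exclusive to glia. *Erbb3* is also made by many epithelia, *Sox10* and *Erbb3* by melanocytes, *S100b* by chondrocytes and some adipocytes, and *Fabp7* and *S100b* by glia of the central nervous system. In a whole organ, fewer cells of a type and less RNA per cell cannot be told apart.

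In Rest pKO pancreas 5 of the 6 markers had a higher mean than in controls, from 1.15-fold for *Erbb3* to 2.35-fold for *Cdh19*, but none passed the test at an adjusted p of 0.05 (edgeR's quasi-likelihood test over 14550 genes). Across those 14550 genes the same test called 4, or 0.0275%. The Rest pKO libraries both exceeded both controls in *Sox10*, *S100b*, *Erbb3* and *Cdh19*. Of all genes tested 21.5% lay so and 21.2% the other way round, and nothing is read from that share for the markers, since *Cdh19* entered the test only through its Rest pKO libraries and *Foxd3* did not enter. DESeq2 gave an adjusted p for *Sox10*, *S100b*, *Erbb3* and *Fabp7* only and called none of them, and it called 0.182% as higher and 0.533% as lower of the 14250 genes for which it gave one. With sex added as a term edgeR called none of them, and 0.412% of all genes as higher and 1.29% as lower. *Fabp7* and *Foxd3* overlapped between genotypes.

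Total counts were 16936759 and 18644088 in the controls, 20738162 and 24134100 in Rest pKO, so the Rest pKO libraries were the deeper ones. Pairs of values follow the replicate numbers, positions of genes are in mm9, and levels are given as CPM, counts divided by the TMM-scaled library total so that libraries of different depth can be set side by side. The 6 markers together took 434 and 556 counts in control and 780 and 809 in Rest pKO libraries, of which *Erbb3* supplied most. *Rest* was at 14.2 and 15.7 CPM in control and 12.1 and 9.16 CPM in Rest pKO libraries, a log2 fold change of −0.49 (SE, the standard error, 0.23) with an adjusted p of 0.593 in edgeR. Reads were counted over the whole gene and over cells outside the *Pdx1* lineage too, so these levels do not measure the deletion. Each genotype held 1 female and 1 male library by *Xist* and Y-linked counts. The markers of the pancreas itself were present throughout, with 12 acinar enzyme and acinar factor genes taking 25% to 30.9% of all counts.

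*S100b*, which encodes a small calcium-binding protein of Schwann cells, occupies 75716598 to 75723904 of chromosome 10 (mm9). It is the marker with the smallest p in the genotype comparison, and the stretch around its transcription start is shown because it holds letters close to part of the site that REST binds. REST recognizes RE1, an element whose left part reads TTCAGCACC and whose right part reads GGACAGCGC. Both were searched on both strands, allowing 1 mismatch, in RefSeq promoter windows of 300 bases (250 before a start and 50 after it, build GRCm38.p6). The stretch is chr10:76253736-76253846 on the plus strand (GRCm38.p6), 5′ to 3′, with 100 bases before the start and 11 after it, and capitals mark the match.
*S100b*: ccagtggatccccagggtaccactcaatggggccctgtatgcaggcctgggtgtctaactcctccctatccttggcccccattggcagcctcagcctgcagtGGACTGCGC
The match covers bases 3 to 11 after the start and differs from the right part by A5T, counted from 1 at the 5′ end of the motif. A right part with at most 1 mismatch was found in 9.12% of the 32851 windows and a left part in 8.25%, and the *S100b* window held no left part. The search was made after this sequence had been seen, and a match of letters is not a binding site.
The table of windows holds 3 of the 6 markers. Neither RE1 part was found in the windows of *Fabp7* and *Foxd3*. The SOX core motifs ACAAAG and ACAATG, searched without mismatch on both strands, were in none of the 3 windows, against 18.7% and 12.6% of all windows. *Sox10*, *Erbb3* and *Cdh19* have no entry in that table.

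*Sox10* lies on chromosome 15 from 78985343 to 78994920. It was counted 34 and 32 times in control replicates 1 and 2 and 92 and 53 times in Rest pKO replicates 1 and 2, or 2.02, 1.61, 4.27 and 2.41 CPM. The genotypes did not overlap. The Rest pKO libraries differed 1.77-fold from each other, and the exact 95% Poisson intervals of their counts did not overlap (3.44 to 5.23 CPM in replicate 1 and 1.81 to 3.16 CPM in replicate 2). The interval of replicate 2 overlapped those of both controls (1.40 to 2.83 and 1.1 to 2.28 CPM). These intervals cover counting error only. The genotype means were 1.82 ± 0.290 CPM (control) against 3.34 ± 1.31 CPM (Rest pKO; SD, n = 2 each). On the log2 scale the difference was 0.88 (SE 0.41), with an adjusted p of 0.588 in edgeR and 0.878 in DESeq2. Without Rest pKO replicate 1 it was 0.41.

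*Foxd3*, a forkhead factor of early neural crest and glial precursors, lies on chromosome 4 from 99322990 to 99325362. It had 1 and 4 counts in control and 2 and 3 in Rest pKO libraries, too few to enter the test. The Poisson intervals of these counts reached up to 0.332 and 0.517 CPM in control and 0.335 and 0.399 CPM in Rest pKO libraries. A difference between genotypes was not detectable at this depth. Its exons overlap 89 bases of an annotated miRNA gene on the same strand, 3.75% of its exon length, while the exons of the other markers overlap no other annotated gene in this annotation.

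*Erbb3* lies on chromosome 10 from 128004579 to 128026708 and was the most counted of the 6. The counts were 303 and 417 in control and 475 and 507 in Rest pKO libraries, or 18, 21.0, 22.0 and 23.1 CPM. Rest pKO replicate 1 lay just above control replicate 2, within the counting error of either. The means were 19.5 ± 2.12 and 22.6 ± 0.756 CPM (SD, n = 2 each), a log2 fold change of 0.21 (SE 0.19, edgeR adjusted p = 0.733). The 95% interval of the fold change ran from 0.856 to 1.56. *Erbb3* therefore has the narrowest interval of the 5 markers tested.

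*Cdh19*, a cadherin of Schwann cell precursors, lies on chromosome 1 from 112785772 to 112873949. It had 3 and 7 counts in control and 13 and 15 in Rest pKO libraries, or 0.179, 0.353, 0.603 and 0.683 CPM. The groups do not overlap, yet the Poisson intervals of the control libraries (0.0368 to 0.522 and 0.142 to 0.727 CPM) overlap those of Rest pKO (0.321 to 1.03 and 0.382 to 1.13 CPM). The filter on low counts asks for 0.508 CPM in at least 2 libraries, and *Cdh19* passed it only through the Rest pKO libraries, so its separation supports nothing further. Its log2 fold change was 1.23 (SE 0.62, edgeR adjusted p = 0.618), with a 95% interval of the fold change from 0.856 to 6.43.

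*S100b* was counted 86 and 70 times in the controls and 160 and 203 times in Rest pKO, or 5.12, 3.53, 7.42 and 9.25 CPM. The genotypes did not overlap, and the Poisson interval of Rest pKO replicate 1 (6.31 to 8.66 CPM) only just overlaps that of control replicate 1 (4.09 to 6.32 CPM). The 95% interval of the fold change was 1.20 to 3.12 around 1.93-fold, for a log2 fold change of 0.95 with a standard error of 0.30. No other marker had an unadjusted p under 0.05, a level that 3.26% of all genes tested reached in this direction, 5.61% in the other and 2.6% in this one with sex as a term. That standing rested on single libraries. Without control replicate 2 *S100b* no longer reached that level and *Fabp7* did, and without Rest pKO replicate 2 *Sox10* did in its place. Adjusted over all genes the p of *S100b* was 0.463 in edgeR and 0.442 in DESeq2.

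*Fabp7*, the fatty acid-binding protein of immature glia, lies on chromosome 10 from 57504687 to 57508256. It was counted 7 and 26 times in the controls and 38 and 28 times in Rest pKO, or 0.417, 1.31, 1.76 and 1.28 CPM. Control replicate 2 lay above Rest pKO replicate 2, and the controls differed 3.15-fold from each other. The log2 fold change of 0.79 (SE 0.58, edgeR adjusted p = 0.689) was 0.21 without control replicate 1 and 1.85 without control replicate 2.

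**Figure D1:**
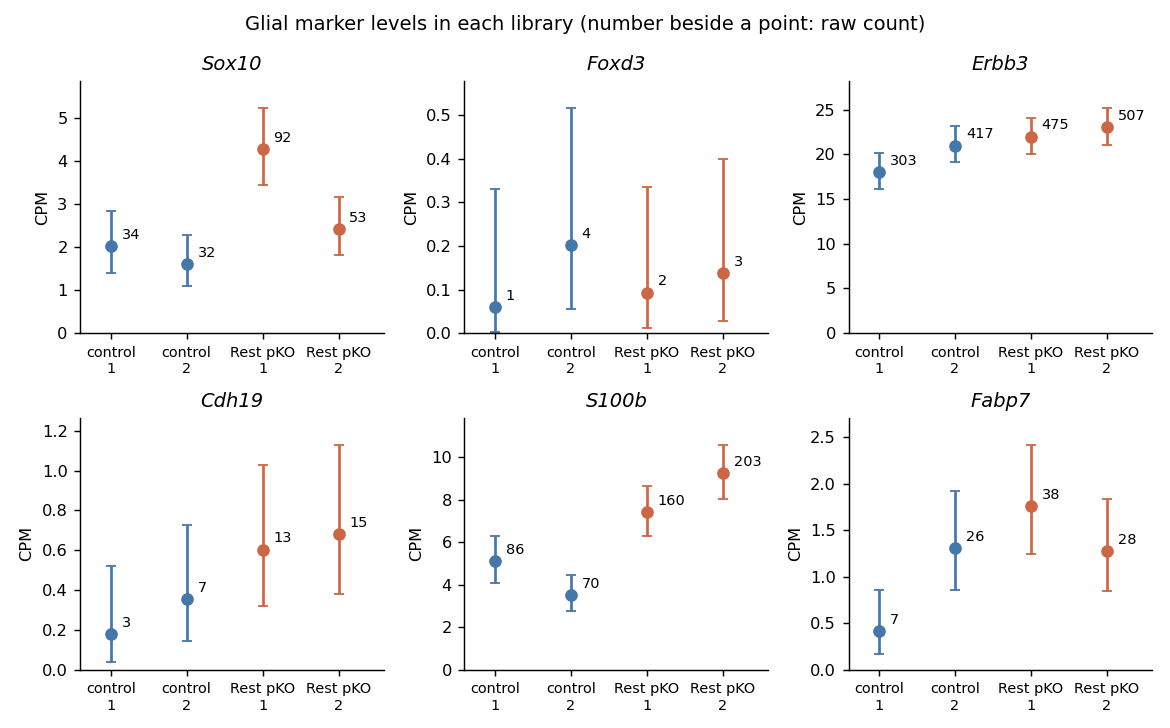
CPM of the 6 glial markers in each library, 2 controls and 2 Rest pKO, with exact 95% Poisson intervals as bars and the raw count beside each point. In *Sox10*, *Erbb3*, *Cdh19* and *S100b* both Rest pKO points lie above both control points, while *Fabp7* and *Foxd3* overlap.

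Which library was highest differed between markers. *Sox10* and *Fabp7* peaked in Rest pKO replicate 1, *S100b*, *Erbb3* and *Cdh19* in Rest pKO replicate 2, and *Foxd3* in control replicate 2. There were 2.53 and 2.19 counts of *S100b* per count of *Sox10* for the controls and 1.74 and 3.83 for the Rest pKO libraries, so both control ratios lay between those of the Rest pKO libraries. For *Erbb3* the counts per *Sox10* count were 8.91 and 13.0 in control and 5.16 and 9.57 in Rest pKO libraries, which overlap.

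Levels between genes were set side by side as mean CPM per kilobase of exon over all 4 libraries. The order over both genotypes was *S100b* (4.26), *Erbb3* (3.50), *Fabp7* (0.953), *Sox10* (0.951), *Cdh19* (0.149) and *Foxd3* (0.0517). The first pair stood the other way round in the controls, where the mean of *Erbb3* was 3.25 and that of *S100b* 2.91, beside 3.75 and 5.62 in Rest pKO. *Fabp7* and *Sox10* had control means of 0.691 and 0.67 and Rest pKO means of 1.21 and 1.23. Neither pair kept its order in all 4 libraries. The other neighbours did, with *Erbb3* above *Fabp7*, *Sox10* above *Cdh19* and *Cdh19* above *Foxd3* in each library, the last at counts of 1 to 15.

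The fold changes of the 5 markers tested had a median of 0.88 on the log2 scale, beside −0.005 for all 14550 genes, and 49.5% of all genes had one above 0. Since *Cdh19* entered through its Rest pKO libraries and *Foxd3* did not enter, the fit without a filter on low counts is given as well. It held all 6 markers, with a median of 0.84 and 5 of 6 above 0.

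**Figure D2:**
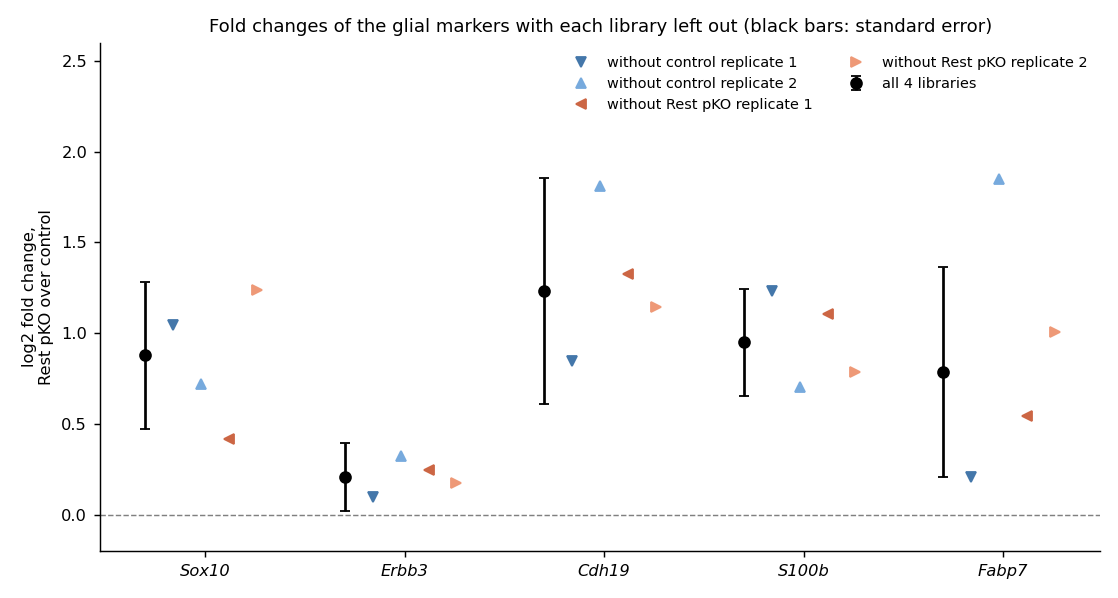
Log2 fold change (Rest pKO over control, edgeR) of the 5 markers tested, from all 4 libraries (black, with standard error) and with each library left out in turn (triangles). The values stay above 0, and those of *Fabp7* run from 0.21 to 1.85 and those of *Sox10* from 0.41 to 1.24.

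Further genes of the glial lineage were read from lists written with earlier results of these data known. Of 10 genes of neural crest and Schwann cell precursors, 6 could be tested, 5 lay above 0 and 1 below on the log2 scale, and none passed (lowest adjusted p = 0.424, edgeR). *Gfra3*, the artemin receptor subunit of Schwann cell precursors and sensory neurons, was at 3.63 and 2.98 CPM in control and 5.89 and 6.74 CPM in Rest pKO libraries (log2 fold change 0.94, SE 0.29, edgeR adjusted p = 0.46). *Ngfr*, the low-affinity neurotrophin receptor, was at 3.39, 4.14, 4.45 and 5.65 CPM in the same order. In both genes the genotypes did not overlap.
*Dhh*, the hedgehog ligand secreted by Schwann cells, had 3 and 15 counts in control and 24 and 27 in Rest pKO libraries. *Ednrb*, the endothelin receptor of neural crest that is also made by endothelial and mesenchymal cells, went the other way, at 45.2 and 39.8 CPM in control and 28.8 and 22.9 CPM in Rest pKO libraries (log2 fold change −0.72, SE 0.20, edgeR adjusted p = 0.424). Unadjusted, the p of *Ednrb* was 0.00774 and that of *Gfra3* 0.0126 (edgeR). *Pax3* had no count in any library, and *Sox2*, *Tfap2a* and *Tfap2b*, factors of early crest and precursors, were at or below 0.0911 CPM in each.

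Of 15 genes of immature and non-myelinating glia, 13 were tested, 6 lay above 0 and 7 below, with a median of −0.01. *Col28a1*, a collagen around non-myelinating Schwann cells, had 11 and 3 counts in control and 28 and 37 in Rest pKO libraries, a log2 fold change of 1.91 (SE 0.66). It and *Apod*, an apolipoprotein of nerve with 8 and 11 counts in control and 20 and 33 in Rest pKO libraries, had an unadjusted p under 0.05 (0.0208 and 0.0461, edgeR) and did not pass the adjusted test (lowest adjusted p of the list 0.495). For each of these 2 genes only 1 control library reached the level of the filter on low counts, against 2 Rest pKO libraries. They would not have passed it on the controls alone, so nothing further is read from their separation. The genotypes were apart in 4 tested genes with higher Rest pKO levels, *Col28a1*, *Apod*, *Entpd2* and *Plekhb1*. They were also apart in 4 with lower Rest pKO levels, *Ptprz1*, *Gpm6b*, *Adgrg6* and *Sox8*, and overlapped in 5. *Ptprz1* was at 6.85 and 5.45 CPM in control and 4.17 and 4.05 CPM in Rest pKO libraries. Its log2 fold change was −0.58 (SE 0.28, edgeR adjusted p = 0.606). *Lgi4*, a secreted glial protein needed for myelination, was at 2.32 and 3.28 CPM in control and 1.95 and 2.64 CPM in Rest pKO libraries, and *Scn7a*, a sodium channel of non-myelinating Schwann cells, at 3.93, 2.93, 4.13 and 2.28 CPM. Both overlapped between genotypes. Exons of *Fxyd3*, a protein-coding gene on the opposite strand, overlap 44.9% of the exon length of *Lgi4*. The strand setting of the counting is not given, so the level of *Lgi4* is uncertain. Exons of *Npdc1*, a protein-coding gene on the same strand, overlap 28.7% of the exon length of *Entpd2*. The level of *Entpd2*, and with it its separation, is therefore uncertain too. *Gfap*, the intermediate filament of mature non-myelinating glia, had 3 and 6 counts in control and 5 and 1 in Rest pKO libraries and could not be tested.

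Of 14 myelin genes, 11 were tested, 6 above 0 and 5 below, with a median of 0.22 and a lowest adjusted p of 0.588 (edgeR). *Egr2*, the transcription factor that switches on myelination, had 14 and 11 counts in control and 8 and 10 in Rest pKO libraries. *Mal*, a proteolipid of myelin that epithelia make as well, was at 3.45 and 3.78 CPM in control and 5.93 and 5.15 CPM in Rest pKO libraries (log2 fold change 0.61, SE 0.28). *Pmp22* and *Gjb1*, which epithelial and other cells also make, stood at 83.2 to 106 and 62.1 to 81.5 CPM, well above the level of *Sox10*.

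The partners of ERBB3 were read next. Of 8 genes of neuregulin and ErbB signalling 5 were tested, 1 above 0 and 4 below, and none passed (lowest adjusted p = 0.638, edgeR). *Nrg1*, the axonal ligand, had 19 and 15 counts in control and 11 and 10 in Rest pKO libraries, a log2 fold change of −0.95 (SE 0.52). *Erbb2*, the co-receptor, was at 22.1 and 23.9 CPM in control and 20.7 and 24.1 CPM in Rest pKO libraries (log2 fold change −0.04, SE 0.19). There were 0.817 and 0.880 counts of *Erbb3* per *Erbb2* count for the controls and 1.06 and 0.957 for the Rest pKO libraries. *Erbb4*, the other neuregulin receptor, had 8 and 24 counts in control and 8 and 11 in Rest pKO libraries and was not tested.

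**Figure D3:**
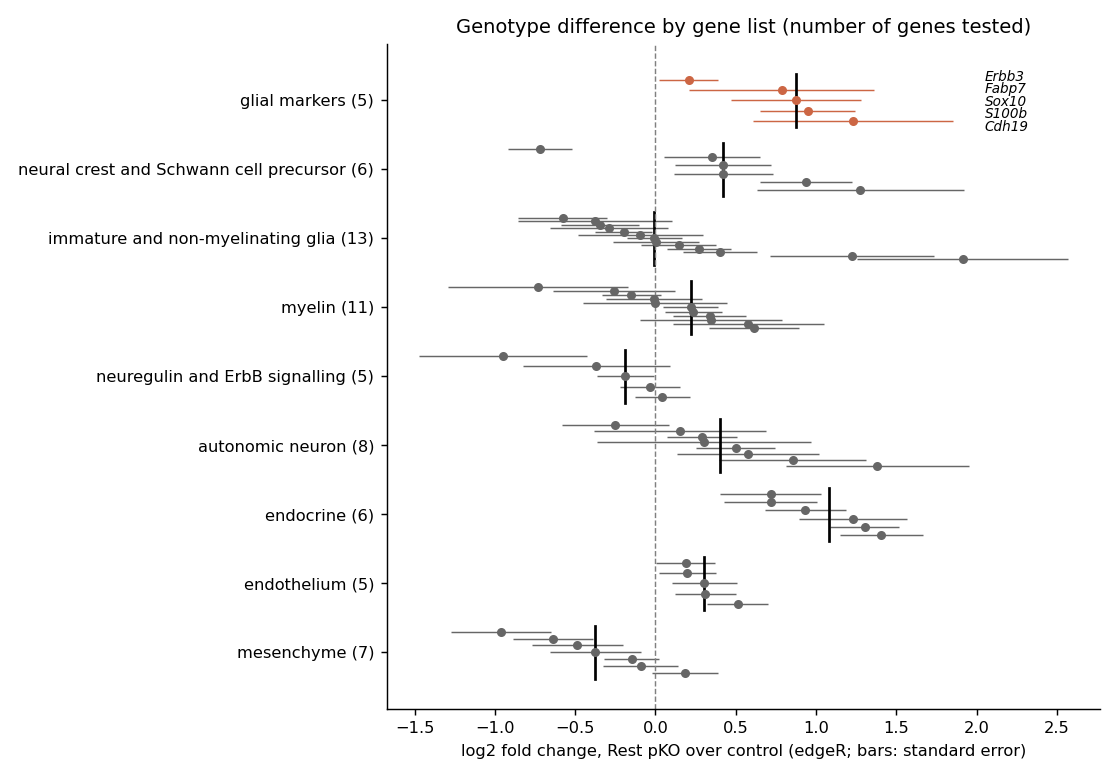
Log2 fold changes (Rest pKO over control, edgeR) of the genes tested in 9 lists, each point 1 gene with its standard error and each black line the median of its list. The 5 glial markers have a median of 0.88, the lists of precursor, non-myelinating and myelin genes have medians of 0.42, −0.01 and 0.22, and the endocrine genes one of 1.08.

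Markers of other cells that could hold the same transcripts were counted in the same libraries. Of 6 melanocyte genes, *Tyr*, *Tyrp1* and *Mlana* had no count in any library. That allows at most 0.137 to 0.179 CPM each (3 counts per library). *Dct* had 10 and 13 counts in control and 16 and 11 in Rest pKO libraries. *Pmel* had 12 and 16 counts in control and 16 and 27 in Rest pKO libraries, and both genes overlapped between genotypes. The 6 genes summed to 11 and 9.58 CPM in control and 8.67 and 6.51 CPM in Rest pKO libraries, mostly from *Mitf*. Of 5 genes of central glia, *Olig2* and *Mog* had no count, and the list summed to 68.6 and 65.9 CPM in control and 60.0 and 76.7 CPM in Rest pKO libraries, mostly *Aldh1l1*, a folate enzyme that other tissues make. Of 4 adipocyte genes, *Plin1* had no count and *Adipoq* and *Lep* had at most 1 count in a library, and the list summed to 81.8 and 58.9 CPM in control and 68.4 and 96.7 CPM in Rest pKO libraries, nearly all *Fabp4*, which endothelium makes too. Of 4 cartilage genes 3 were tested and lay above 0, and the 4 summed to 4.46 and 2.87 CPM in control and 7.19 and 5.56 CPM in Rest pKO libraries. Among them *Col9a1*, a cartilage collagen, was at 2.08 and 1.51 CPM in control and 3.71 and 3.37 CPM in Rest pKO libraries. *Col2a1* had 28 and 12 counts in control and 59 and 28 in Rest pKO libraries (log2 fold change 0.83, SE 0.60). *Acan* had 12 and 15 counts in control and 16 and 19 in Rest pKO libraries, and both genes overlapped between genotypes. *Matn1*, a cartilage matrix protein, had 1 count in all. The part of these cells in the marker values was not tested.

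Genes of nerve, islet, vessel and connective tissue cells were read in the same way, and none of them passed the edgeR test on genotype alone. Of 15 genes of autonomic neurons 8 were tested and 7 lay above 0, and the list summed to 26.7 and 23.1 CPM in control and 31.0 and 36.1 CPM in Rest pKO libraries. *Prph*, a neurofilament protein of peripheral neurons, was at 1.49 and 0.958 CPM in control and 1.62 and 4.74 CPM in Rest pKO libraries. *Chat* had no count in any library and *Dbh* 1 in all. The 6 endocrine genes, hormones and a granule protein, summed to 2950 and 1990 CPM in control replicates 1 and 2 and to 4300 and 6370 CPM in Rest pKO replicates 1 and 2, and 4 of them were called as higher with DESeq2.
The 5 endothelial genes summed to 323 and 402 CPM in control and 467 and 463 CPM in Rest pKO libraries. The 7 mesenchyme genes, mostly collagens and matrix proteins, summed to 8490 and 7610 CPM in control and 4480 and 7100 CPM in Rest pKO libraries. The 5 macrophage and leukocyte genes summed to 135 and 132 CPM in control and 72.6 and 123 CPM in Rest pKO libraries, and 11 erythroid genes to 32.6 and 134 against 23.0 and 21.5 CPM. Among the former, *Ptprc*, the leukocyte antigen CD45, was at 14.9 and 22.2 CPM in control and 5.42 and 7.29 CPM in Rest pKO libraries (log2 fold change −1.55, adjusted p = 0.349 in edgeR and 0.00318 in DESeq2). *Itgam*, an integrin of myeloid cells, was at 17.3 and 20.1 CPM in control and 3.89 and 7.15 CPM in Rest pKO libraries (log2 fold change −1.76, adjusted p = 0.349 in edgeR and 0.000867 in DESeq2). The 3 other genes of that list, *Csf1r*, *Cd68* and *Adgre1*, overlapped between genotypes. With sex as a term edgeR called 4 endocrine genes as higher and 2 leukocyte, 2 erythroid and 1 mesenchyme genes as lower. The 6 duct genes overlapped between genotypes, at 840 and 734 CPM in control and 930 and 776 CPM in Rest pKO libraries. The glial markers themselves summed to 25.8 and 28.0 CPM in control and 36.2 and 36.9 CPM in Rest pKO libraries, a ratio of 1.36 in which *Erbb3* weighs most. Beside these values, the part of autonomic neurons, islets, vessels, mesenchyme and blood cells in the marker values was not tested.

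**Figure D4:**
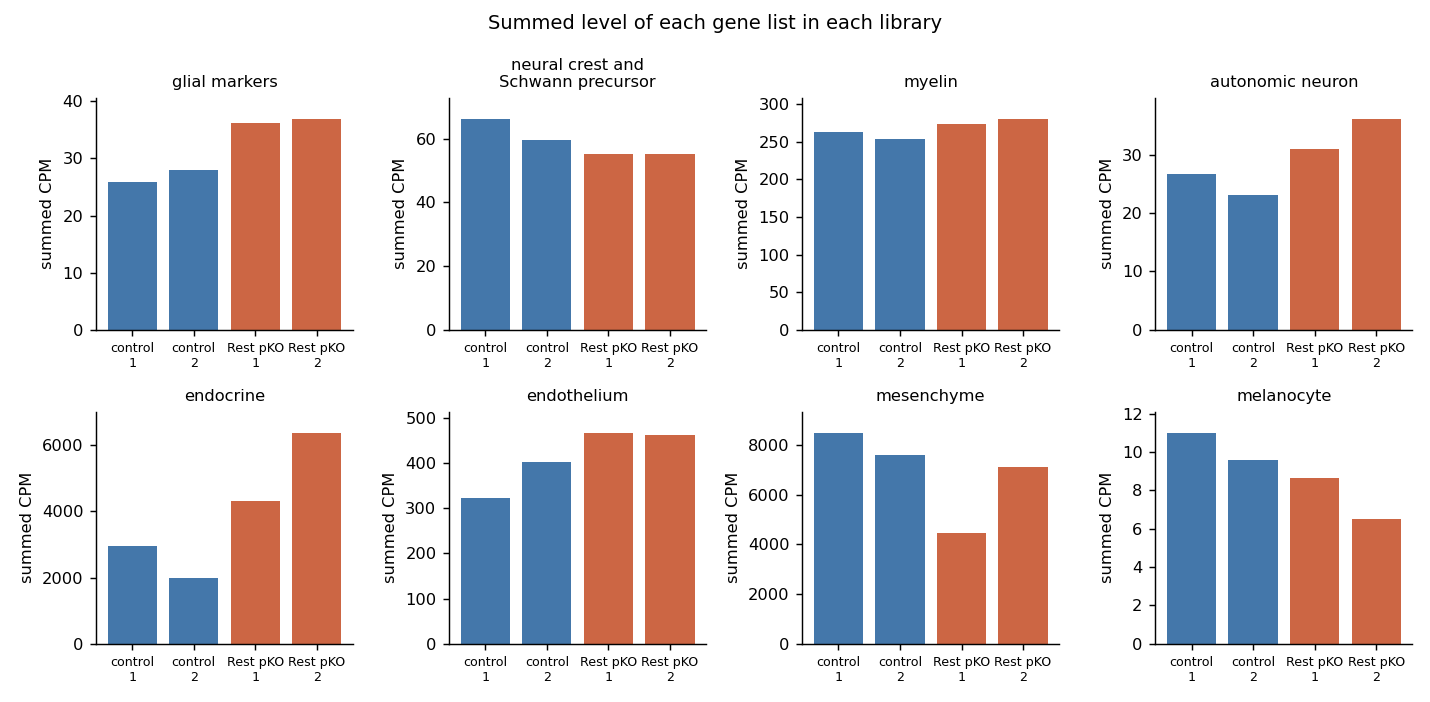
Summed CPM of 8 gene lists in each library, bars from 0, controls in blue and Rest pKO in orange. The glial markers reach 36.2 and 36.9 CPM in Rest pKO beside 25.8 and 28.0 CPM in the controls, the endocrine genes 4300 and 6370 beside 2950 and 1990, and the mesenchyme genes are lowest in Rest pKO replicate 1.

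The genes nearest in pattern to the markers were sought among 11050 genes with a mean of at least 5 CPM, by the Euclidean distance of their centred log2 CPM over the 4 libraries. Nearest to the mean of the 5 markers tested were *Ripk4*, a kinase of epithelial cells (distance 0.0347), *Amigo2*, an adhesion protein (0.0669), *Btg2*, an antiproliferative factor (0.0741), *Polr2c*, a subunit of RNA polymerase II (0.104), *Myzap* (0.107) and *Pla2g16* (0.108). *Ripk4* was at 10.4 and 11.9 CPM in control and 18.2 and 16.3 CPM in Rest pKO libraries (log2 fold change 0.63, SE 0.21, edgeR adjusted p = 0.476). Nearest to *Sox10* alone were *Tmem54* (0.110), *Slc35g1* (0.192) and *Fmo1* (0.200). The likeness rests on 4 libraries, and none of these 9 is in the glial lists.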

How the data were processed

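The authors deposited raw counts for each gene, made from paired-end reads of total RNA of E18.5 pancreas. Reads were aligned with STAR to a genome the methods call NCBI36/mm9, uniquely mapped reads were kept, and featureCounts (1.5 in the submitters' processing notes) counted them over UCSC mm9 genes. Strand setting and read or pair counting are not given in the sources used here. Positions and exon lengths came from an mm9 annotation, matched by symbol.

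Counts were tested with edgeR 4.0.16 (filterByExpr, TMM, glmQLFit, glmQLFTest) in R 4.3.3, genotype as the only term, with Benjamini-Hochberg adjustment over 14550 genes, and checked on simulated data. There it called 32.7% of genes given an absolute log2 fold change of 1 and 96.7% of those given 2. The changed genes were drawn from those with a mean above 1 CPM, which leaves out levels like those of *Cdh19* and *Foxd3*. DESeq2 1.42.0 and limma 3.58.1 (voom) were alternatives, beside other scalings and filters, a block for replicate number and each library left out. Replicates differed beyond sampling noise (chi-square per degree of freedom 23.2 in controls and 64.9 in Rest pKO), and whether they share a litter is not given in the sources used here. Named genes are the 6 markers, the glial lists, the most abundant genes of other lists, the nearest in pattern and *Rest*. *Dbh*, *Chat*, *Tyrp1*, *Mlana*, *Mog* and *Itgam* were named after their values were seen. So were *Entpd2*, *Plekhb1*, *Ptprz1*, *Gpm6b*, *Adgrg6* and *Sox8*. Some genes of the lists are not reported here by name. The markers, lists and tests were chosen with earlier results of these data known.

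The right part of RE1 was shortened after a first search with a longer form, which marked the same place in *S100b* and was found in fewer windows overall.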

Additional observations from a re-analysis of the deposited data

How the results depend on the processing

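No glial marker passed the adjusted threshold in any alternative run, and the 5 tested kept a fold change above 0 wherever they were fitted (*Cdh19* not with a filter of 1 CPM), with a lowest adjusted p of 0.102 to 0.776 over the alternatives. Their median log2 fold change of 0.88 was 1.41 when libraries were scaled to mesenchyme and endothelium genes, a scaling that moved the median of all genes to 0.48, and 0.54 to 1.01 with each library left out, where a lone library is assumed to vary like the other genotype. The 4 genes called over all genes became 102 under that scaling, 102 with DESeq2, 247 with sex as a term (chosen after seeing the data) and 1 to 514 with each library left out (208 without control 1, 100 without control 2, 514 without Rest pKO 1, 1 without Rest pKO 2). The cause was not tested. *S100b* alone had an unadjusted p under 0.05, but 4 markers did under that scaling, 2 with no filter on low counts, *Fabp7* alone without control 2 (adjusted p = 0.776, *S100b* 0.998, edgeR) and *Sox10* alone without Rest pKO 2 (adjusted p = 0.365, *S100b* 0.506, edgeR). With the replicate block the median was 0.88 and 4 genes were called. Deviations of libraries with the same number correlated at 0.0652. No label ties the numbers to a litter or batch, so they were not used as pairs, and whether such a tie exists is not given in the sources used here. Counts of 1 to 15 limit *Foxd3* and *Cdh19*.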
